A study of Prunus persica with 21 samples.

Results

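Basic 7S globulin 2 (PRUPE_1G152100) and xyloglucan endotransglucosylase/hydrolase 2, XTH2 (PRUPE_3G171500), are 2 of the 27107 genes in the count table. They were chosen by identifier with earlier results of these data known, so their ranks among all genes are descriptions. Both passed the filter on low counts, as did 18586 genes in all. The names are those of the study's list of 19 genes with RT-qPCR assays, of which these are 2. Leaves of juvenile peach plants (Prunus persica var. Big Top, raised in vitro and kept in a glasshouse) were sprayed with PpPep1 at 100 nM or PpPep2 at 1000 nM, and leaf blades without the central vein were frozen 1, 24 or 48 h later. The control was t0, leaves not given a peptide, which the sample labels call mock and the series description calls untreated. The 7 groups had 3 libraries each, which the methods call biological replicates, each from several plants. The study also sampled mock plants at the later times, for RT-qPCR of its 19 genes, and reported no significant change among their times. Those values were not used here. No untreated library of a later time was analysed, so in the RNA-Seq libraries time since t0 and Pep application cannot be told apart. The dose also differed between the Peps, so a difference between them would be one of peptide and dose together.

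Plant elicitor peptides (Peps) are fragments of the plant's own precursor proteins that leucine-rich repeat receptor kinases (PEPR) bind at the cell surface, and the response resembles that to microbial patterns. Enzymes of the XTH family cut xyloglucan, the hemicellulose that coats cellulose microfibrils in the primary wall, and join the cut end to another chain or to water, which can loosen or reinforce the wall. Basic 7S globulin was described in soybean seed as a cysteine-rich protein found outside the cell. It belongs to a family related to aspartic proteases whose members in other plants include inhibitors of microbial enzymes that digest xylan and xyloglucan. Whether the peach proteins act in these ways was not measured.

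The study designed RT-qPCR primers for both transcripts, and these are the gene-specific sequences at hand, given 5′ to 3′ in lower case to show which transcripts the names refer to. The RT-qPCR values were not used. The primer table holds the pair for basic 7S globulin 2 in a single cell, so which is the forward primer was not stated.
basic 7S globulin 2, first primer in the cell: tgcagtctctcccccgataa
basic 7S globulin 2, second primer in the cell: agtggaaccgcaagtgaaga
XTH2, forward primer: cacaaaacagtctcaactcagca
XTH2, reverse primer: ggcagtcaaggccatcagag

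Before the values, the columns of the table had to be assigned to libraries. Each column total was compared with the study's list of sequenced libraries, which gives read pairs assigned to single genes and how many genes hold 25% of the counts. A match needed a total of 0.95 to 0.99 times the read pairs and the same number of such genes. As headed, 12 of 21 columns matched and 9 did not. The 9 were read by their match, PpPep2 1 h from the columns headed PpPep1 48 h, PpPep2 24 h from those headed PpPep2 1 h, and PpPep1 48 h from those headed PpPep2 24 h, after which 21 of 21 matched, 18 of them with a single library. All other columns are read as headed, and the values of the 2 genes that rest on the 9 columns are also given under the headings. The counts over other genes are given as read only, apart from the numbers of DEG among the effects of processing.

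Library totals ranged from 33231519 to 59317510 counts, with a median of 43773982. The 15 libraries of t0, 1 h and 24 h fell into 2 sets of 8 and 7 by the first flowcell listed for each, and the 6 libraries of 48 h were on other flowcells, so 48 h and its flowcells cannot be told apart in comparisons with earlier times. All libraries of t0 and of PpPep2 24 h were in the set of 8, and all of PpPep1 24 h in the set of 7. PpPep1 24 h thus differs in flowcell from both t0 and PpPep2 24 h. Only the 1 h groups held libraries of both sets, so a flowcell term in the model is estimated from them alone. Levels are CPM, read counts normalised to library size, with sizes scaled by TMM, edgeR's trimmed mean of M values. Gene lengths were not available, so the levels of the 2 genes are not compared with each other. No source pairs identifiers with the photosynthesis or seed storage markers chosen to check the tissue, so the leaf label was not tested. A fall in a gene's RNA per cell and fewer cells that express it cannot be told apart in leaf blades. Adjusted p are those of edgeR's quasi-likelihood test after Benjamini-Hochberg correction over all genes tested. A gene was called differentially expressed (DEG) where adjusted p was under 0.01 and log2FC beyond 1 in either direction. Whether the libraries of groups overlap is given as a description only, since the share of all genes without overlap was not counted.

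Basic 7S globulin 2 was low in untreated leaves and upregulated more than 100-fold 1 h after application of either Pep. In t0 it had 2.91, 2.43 and 5.62 CPM. At 1 h it had 322, 462 and 449 CPM with PpPep1. With PpPep2 it had 680, 288 and 801 CPM at 1 h. All 6 libraries of 1 h lay above all 3 of t0, and the lowest of the 6 was replicate 2 of PpPep2. The rise was 113-fold for PpPep1 (log2FC 6.83, SE 0.68, adjusted p = 1.99e-06) and 163-fold for PpPep2 (log2FC 7.35, SE 0.70, adjusted p = 8.53e-07). Their 95% intervals ran from 41.2 to 312-fold and from 57.9 to 458-fold. The comparisons share the t0 libraries. Of all genes tested, 5.44% were upregulated at 1 h with PpPep1 and 6.18% with PpPep2, and basic 7S globulin 2 ranked 28th and 26th of 18586 by log2FC. Under the column headings the PpPep2 1 h value would be -0.17 and the rise would stand at PpPep1 48 h, with a log2FC of 7.35. From the 12 columns with agreeing headings alone, the PpPep1 value was 6.83 (adjusted p = 0.000103).

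**Figure D1:**
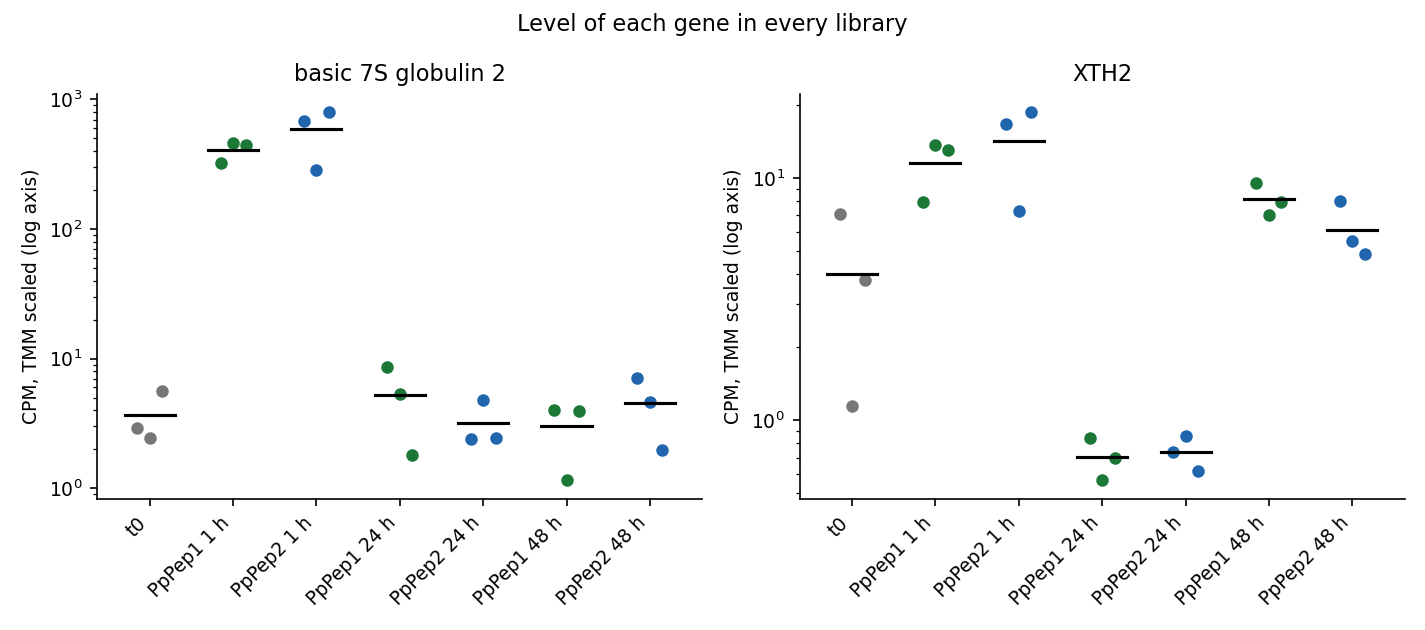
Level of basic 7S globulin 2 (left) and XTH2 (right) in CPM on a log axis in each of 21 libraries, as points in the order of replicates 1 to 3 within a group, with the group mean as a bar. The globulin is high only in the 6 libraries of 1 h (288 to 801 CPM), while XTH2 is lowest in the 6 libraries of 24 h (0.563 to 0.855 CPM).

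By 24 h basic 7S globulin 2 had fallen to levels that overlapped those of untreated leaves, and at 48 h they overlapped too. At 24 h it had 8.59, 5.32 and 1.79 CPM with PpPep1. With PpPep2 at 24 h it had 2.39, 4.78 and 2.46 CPM. Both groups overlapped t0 and neither overlapped 1 h. From 1 h to 24 h its log2FC was -6.30 with PpPep1 (SE 0.66, adjusted p = 3.23e-06) and -7.52 with PpPep2 (SE 0.70, adjusted p = 7.02e-07). This was the 21st and the 9th lowest value of 18586 genes, and 5.97% and 6.33% of genes were downregulated in this step. Read as headed, the PpPep2 step would be -0.076.

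At 48 h the globulin had 4.004, 1.15 and 3.97 CPM with PpPep1. With PpPep2 at 48 h it had 7.11, 4.595 and 1.96 CPM. These ranges overlap t0 and 24 h. Against t0 the log2FC was 0.53 and -0.17 at 24 h and -0.25 and 0.28 at 48 h, PpPep1 first, with adjusted p between 0.626 and 0.923. The 95% intervals were wide, reaching from -1.67 to 1.86 over these 4 values, so a rise of up to 3.62-fold is not excluded. The sign also turned when single libraries were left out. It became -0.041 for PpPep1 24 h without its replicate 1, and 0.27 and 0.0071 for PpPep2 24 h without t0 replicate 3 and without its own replicate 1. For PpPep1 48 h it became 0.19 and 0.14 without t0 replicate 3 and without its own replicate 2, and for PpPep2 48 h -0.15 without its own replicate 1. From 24 h to 48 h the log2FC was -0.77 with PpPep1 (adjusted p = 0.410) and 0.45 with PpPep2 (adjusted p = 0.658). As headed, the PpPep1 step from 24 h to 48 h would be 6.82 and the PpPep2 step 0.53, and PpPep2 24 h against t0 would be -0.25.

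XTH2 followed another course. Its level was highest at 1 h, lowest at 24 h and back in between at 48 h, with either Pep. In t0 it had 7.09, 1.14 and 3.78 CPM, a spread of 6.19-fold between replicates 1 and 2. The SD of its log2 CPM within t0, 1.31, was higher than that of 99.6% of genes tested, whose median was 0.14. Basic 7S globulin 2 also varied widely, with an SD in t0 of 0.63, higher than that of 95.8% of genes. Over the groups this share ran from 86.3% at PpPep1 1 h to 99.5% at PpPep1 24 h. Genes of like level were not compared. At 1 h XTH2 had 7.98, 13.7 and 12.98 CPM with PpPep1. With PpPep2 at 1 h it had 16.7, 7.28 and 18.7 CPM. All 6 libraries of 1 h lay above t0, but the lowest of them, at 7.28 CPM, was close to the highest of t0. Within each 1 h group the libraries stood in the same order for both genes, replicate 1 lowest with PpPep1 and replicate 2 with PpPep2. Within t0 the order differed.

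The log2FC of XTH2 at 1 h against t0 was 1.53 with PpPep1 (2.88-fold, SE 0.45, adjusted p = 0.0228) and 1.83 with PpPep2 (3.54-fold, SE 0.45, adjusted p = 0.00752). Only the PpPep2 value passed the threshold. The difference between the Peps at 1 h was itself far from it (log2FC -0.30, adjusted p = 0.805), so the call does not set them apart. The PpPep2 call was lost without t0 replicate 2 (1.39, adjusted p = 0.0131), without t0 replicate 3 (1.79, adjusted p = 0.0306), and without PpPep2 1 h replicate 1 (1.71, adjusted p = 0.0277) or replicate 3 (1.58, adjusted p = 0.0380). Without t0 replicate 1, the highest of t0, the PpPep1 value was 2.25 and passed (adjusted p = 0.00242). With flowcell as a term in the model the values were 1.42 (adjusted p = 0.183) and 1.74 (adjusted p = 0.0788). Under the headings the PpPep2 value would be -2.44, and from the 12 agreeing columns the PpPep1 value was 1.53 (adjusted p = 0.0621).

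At 24 h XTH2 fell to the bottom of its range. With PpPep1 it had 0.843, 0.563 and 0.700 CPM, and with PpPep2 0.736, 0.855 and 0.614 CPM. These levels rest on 23 to 46 counts per library. The replicates lay close together, 1.496-fold apart with PpPep1 and 1.39-fold with PpPep2. Both groups lay below every other library of the series. From 1 h to 24 h the log2FC was -4.03 with PpPep1 (16.4-fold lower, SE 0.56, adjusted p = 4.36e-05) and -4.26 with PpPep2 (19.2-fold lower, SE 0.54, adjusted p = 1.46e-05). Leaving out single libraries moved these values from -4.25 to -3.89 and from -4.58 to -4.02, and both stayed DEG. With flowcell as a term they were -4.07 and -4.18. By the headings the PpPep2 step would be a rise of 3.46, and the 12 agreeing columns gave -4.03 for PpPep1.

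Against t0, XTH2 at 24 h had a log2FC of -2.50 with PpPep1 (5.67-fold lower, SE 0.58, adjusted p = 0.0103) and -2.44 with PpPep2 (5.41-fold lower, SE 0.56, adjusted p = 0.0155). These were the 16th and the 18th lowest values of 18586 genes. The libraries of t0 overlapped neither group, which describes few libraries and is not a test. Both values missed the adjusted p of 0.01. Of all genes tested, 0.533% and 0.296% were downregulated and 0.393% and 1.02% upregulated at 24 h against t0. Without t0 replicate 2, the lowest of t0, both values passed, at -2.95 (adjusted p = 0.000553) and -2.89 (adjusted p = 0.00122). Without t0 replicate 1, the highest, they were -1.78 (adjusted p = 0.0665) and -1.71 (adjusted p = 0.0969). With flowcell as a term the adjusted p were 0.154 and 0.0563, and with only the compared groups 0.107 and 0.123. The PpPep1 24 h libraries shared no first flowcell with t0, so within these groups treatment and flowcell cannot be told apart. DESeq2 called both, at -2.52 (adjusted p = 2.96e-05) and -2.45 (adjusted p = 6.24e-05). By its heading the PpPep2 value would be 1.03.

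From 24 h to 48 h XTH2 rose again. At 48 h it had 9.48, 7.05 and 7.94 CPM with PpPep1. With PpPep2 at 48 h it had 7.99, 5.50 and 4.84 CPM. All 6 libraries lay above all 6 of 24 h and both groups overlapped t0 at its upper end and 1 h at its lower end. The log2FC was 3.53 with PpPep1 (11.6-fold, SE 0.57, adjusted p = 0.000278) and 3.03 with PpPep2 (8.17-fold, SE 0.55, adjusted p = 0.00106). These were the 12th and 15th highest values of 18586 genes in a step in which 1.79% and 1.05% of genes were upregulated. The 48 h libraries were on flowcells of their own, so time and flowcell cannot be told apart in this rise. Under the headings the PpPep1 step would be 4.33 and the PpPep2 step -0.43.

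Against t0 the log2FC of XTH2 at 48 h was 1.03 with PpPep1 (SE 0.46, adjusted p = 0.0894) and 0.59 with PpPep2 (SE 0.46, adjusted p = 0.361). Neither was a DEG, while 2.17% and 1.42% of genes were upregulated and 2.35% and 1.18% downregulated. Without t0 replicate 1 the values were 1.75 (adjusted p = 0.00914), which passed, and 1.32 (adjusted p = 0.0518). Without t0 replicate 2 they were 0.57 (adjusted p = 0.245) and 0.14 (adjusted p = 0.820), and without PpPep2 48 h replicate 1 the PpPep2 value was 0.37 (adjusted p = 0.647). Under the headings the PpPep1 value would be 1.83.

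**Figure D2:**
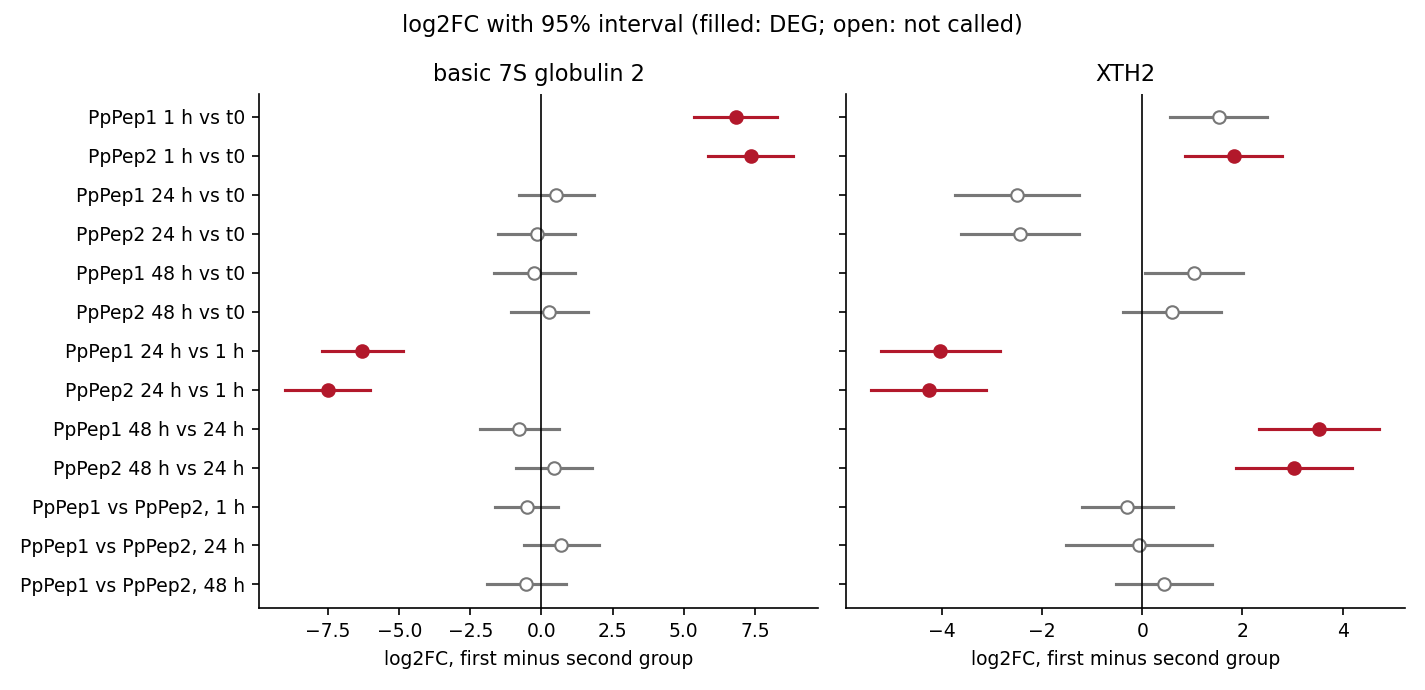
The log2FC of basic 7S globulin 2 (left) and XTH2 (right) in 13 comparisons, first group minus second, with 95% intervals from edgeR. Filled red points are DEG and open grey points are not. XTH2 is at -4.03 and -4.26 from 1 h to 24 h and at 3.53 and 3.03 from 24 h to 48 h, and the intervals of the comparisons between Peps all include 0.

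The order of the group means shows how the genes differ in course. For basic 7S globulin 2 it was PpPep2 1 h (590 ± 268 CPM, SD, n = 3), PpPep1 1 h (411 ± 77.5), PpPep1 24 h (5.23 ± 3.40), PpPep2 48 h (4.55 ± 2.57), t0 (3.65 ± 1.72), PpPep2 24 h (3.21 ± 1.36) and PpPep1 48 h (3.04 ± 1.64). Neighbours in this order overlapped in their libraries except PpPep1 1 h and PpPep1 24 h. For XTH2 it was PpPep2 1 h (14.2 ± 6.10 CPM, SD, n = 3), PpPep1 1 h (11.5 ± 3.11), PpPep1 48 h (8.16 ± 1.23), PpPep2 48 h (6.11 ± 1.66), t0 (4.004 ± 2.98), PpPep2 24 h (0.735 ± 0.120) and PpPep1 24 h (0.702 ± 0.140). Here the gap lay between t0 and PpPep2 24 h, and the other neighbours overlapped.

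The lower call from 1 h to 24 h followed by the higher call from 24 h to 48 h, with both Peps, was made in 68 of 18586 genes (0.366%), XTH2 among them. The rise to 1 h followed by the fall to 24 h was called in 862 genes with PpPep1 (4.64%) and 958 with PpPep2 (5.15%). Basic 7S globulin 2 is among both. XTH2 is among those of PpPep2, since its PpPep1 value at 1 h missed the threshold. Each pair of steps shares a group of libraries, so these are counts and not tests.

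No difference between the Peps was called for either gene. At 1 h PpPep1 against PpPep2 gave a log2FC of -0.52 for basic 7S globulin 2 (95% interval -1.62 to 0.58, adjusted p = 0.700) and -0.30 for XTH2 (-1.20 to 0.61, adjusted p = 0.805). At 24 h, where the groups had different first flowcells, it was 0.70 for the globulin (-0.63 to 2.02, adjusted p = 0.650) and -0.07 for XTH2 (-1.53 to 1.40, adjusted p = 0.978). At 48 h, where both groups had the same first flowcell, it was -0.53 for the globulin (-1.93 to 0.87, adjusted p = 0.830) and 0.43 for XTH2 (-0.52 to 1.38, adjusted p = 0.789). The libraries overlapped in all 6 comparisons. The intervals reach from -1.93 to 2.02 for the globulin and from -1.53 to 1.40 for XTH2, so likeness of the Peps is not shown. Of all genes tested, 0.0161%, 0.0377% and 0.00538% were called at 1, 24 and 48 h. The sign for XTH2 at 24 h turned, to 0.062 and 0.052, without PpPep1 24 h replicate 2 and without PpPep2 24 h replicate 2.

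Whether a step in time differed between the Peps was tested as an interaction. The step from 1 h to 24 h, PpPep1 minus PpPep2, differed by 1.22 on the log2 scale for the globulin (95% interval -0.50 to 2.94, adjusted p = 0.727) and by 0.23 for XTH2 (-1.50 to 1.96, adjusted p = 0.972). The step from 24 h to 48 h differed by -1.23 for the globulin (-3.16 to 0.70, adjusted p = 0.734) and by 0.50 for XTH2 (-1.25 to 2.25, adjusted p = 0.909). Neither gene passed the threshold in either test. The share of all genes called in these tests is not given here, so the lack of a call is not particular to these genes. Without PpPep2 1 h replicate 3 the first XTH2 value was -0.015. Under the headings the comparisons between Peps would be 6.998, 0.77 and 7.07 at 1, 24 and 48 h for the globulin, and 3.96, -3.53 and 1.23 for XTH2. The interactions would be -6.22 and 6.29 for the globulin and -7.49 and 4.76 for XTH2.

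The genes whose levels were most like those of each gene were found by Pearson's r of log2 CPM over the 21 columns, which does not depend on how the columns are assigned. The r is given as a description, since the 21 columns share groups and most genes with a peak at 1 h correlate. For basic 7S globulin 2, 794 of 18585 genes had an r over 0.9, against 82 for XTH2. The r between the 2 genes was 0.62.

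Among named genes, the highest r with basic 7S globulin 2 was that of PRUPE_1G490800, a probable receptor-like protein kinase (r = 0.99), which was also the highest of all genes. PRUPE_1G424300, named ZAT10, a zinc finger transcription repressor of stress responses in Arabidopsis, had r = 0.99. PRUPE_2G247600, the nematode resistance protein-like HSPRO2, had r = 0.99. A mitochondrial uncoupling protein (PRUPE_8G067800, r = 0.99) and scarecrow-like protein 21 (PRUPE_4G200200, r = 0.98), a GRAS-family transcription factor, completed the 5. The second highest of all was PRUPE_1G074400 (r = 0.99), to which no source used here gives a name.

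These genes shared the single peak at 1 h but mostly not its height. From t0 to 1 h with PpPep1, mean CPM went from 1.27 to 14.4 for the receptor-like kinase, from 20.9 to 159 for ZAT10 and from 10.6 to 95.3 for HSPRO2. The uncoupling protein went from 0.462 to 59.1 CPM, a rise near that of basic 7S globulin 2.

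For XTH2 the highest r was that of PRUPE_3G171700 (r = 0.98), followed by PRUPE_1G520600 (r = 0.97), neither of which has a name in the sources used here. PRUPE_3G171700 had 5.35 ± 1.60 CPM at 1 h, 0.222 ± 0.109 at 24 h and 3.04 ± 1.18 at 48 h with PpPep1 (SD, n = 3), with 4 to 13 counts per library at 24 h. Its identifier differs from that of XTH2 only by the last numbers. RSEM divides reads that map to several genes, and without sequences whether these 2 genes share reads could not be checked, so both values are uncertain in that respect.

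Among named genes the highest r with XTH2 was that of PRUPE_1G305600 (r = 0.97), GATL3, named as a galacturonyltransferase-like protein of the glycosyltransferase family that also holds pectin-building enzymes. GATL3 is the other gene of the cell wall list in which both the fall to 24 h and the rise to 48 h were called with both Peps. SAH7 (PRUPE_1G512400, r = 0.94), an inactive receptor-like kinase (PRUPE_6G052400, r = 0.94), TEM1 (PRUPE_1G305900, r = 0.93), in Arabidopsis a repressor of flowering, and protein phosphatase 2C 10 (PRUPE_1G517700, r = 0.90) followed. At 24 h with PpPep1 GATL3 was at 10.9 ± 1.74 CPM against 20.1 ± 4.48 in t0, and TEM1 at 103 ± 34.9 against 186 ± 1.17. The r reflects shape and not size. From 1 h to 24 h with PpPep1, SAH7 had a log2FC of -0.88 and protein phosphatase 2C 10 of -0.64, against -4.03 for XTH2. Neither SAH7 nor protein phosphatase 2C 10 was called in any step with either Pep.

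**Figure D3:**
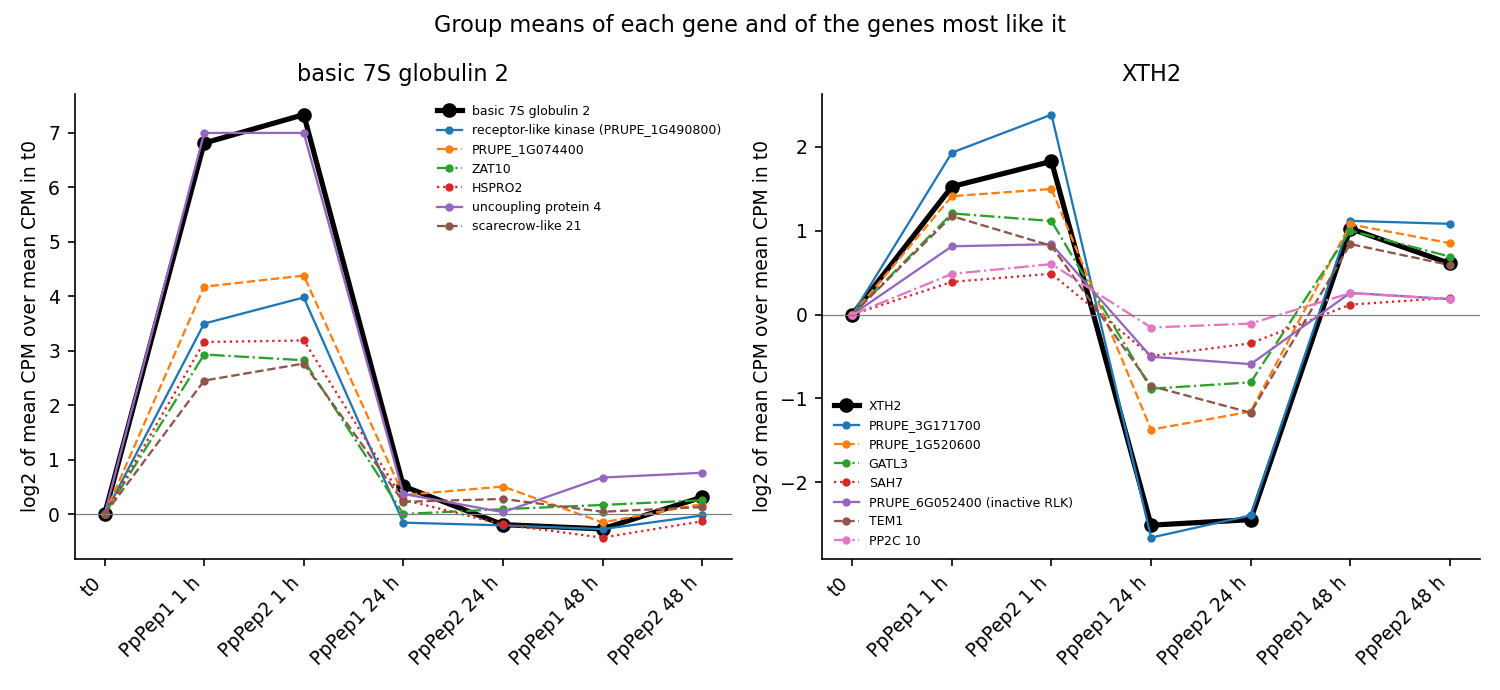
Log2 of mean CPM in each group over mean CPM in t0, for basic 7S globulin 2 (left) and XTH2 (right) in black and for the genes with the highest r to each. The left genes share a peak at 1 h, the right ones a peak at 1 h, a low at 24 h and a return at 48 h, of very unlike size. XTH2 and PRUPE_3G171700 have the lowest points at 24 h.

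The other genes of the cell wall list, chosen by words in the names that the sources give, numbered 4. They are GATL3, Peroxidase 44, a class III peroxidase of the kind that cross-links wall polymers, the Aspartyl protease family protein APF2, and the class V chitinase CHIT5A, which belongs to enzymes that cut chitin. The names of these 4 came from the study's RT-qPCR list or from its network, which was built around the RT-qPCR genes. The list was thus drawn in part from genes picked on these samples, so its counts are a description and not independent evidence. At 1 h 3 of the 4 were upregulated with either Pep, beside the 5.44% and 6.18% of all genes given above, and their median log2FC was 1.88 and 1.95 against -0.02 and -0.03 for all genes. Peroxidase 44 had 3.34 and 3.80, APF2 2.55 and 2.79, and GATL3 1.21 and 1.12, while CHIT5A had 0.67 and 0.64 and was not called. Basic 7S globulin 2 lay above all 4 and XTH2 between APF2 and GATL3.

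From 1 h to 24 h the same 3 of 4 were downregulated with either Pep, against 5.97% and 6.33% of all genes, with a median over the 4 of -2.19 and -2.04 against 0.02 and 0.02 for all genes. GATL3 had -2.09 and -1.92, APF2 -2.29 and -2.16 and Peroxidase 44 -3.00 and -3.70. From 24 h to 48 h GATL3 was upregulated with both Peps, at 1.89 (adjusted p = 2.61e-06) and 1.499 (adjusted p = 3.25e-05). In this step Peroxidase 44 was downregulated with PpPep1, at -1.85 (adjusted p = 0.00231), and CHIT5A with PpPep2, at -1.005 (adjusted p = 6.87e-05), beside 1.8% and 1.23% of all genes. With the other Pep, Peroxidase 44 had -0.86 (adjusted p = 0.113) and CHIT5A -0.90 (adjusted p = 0.000127), the latter not called because of its size. The interaction was called for neither (adjusted p = 0.581 and 0.922), so these calls do not set the Peps apart. Against t0, 0 of the 4 were called at 24 h with either Pep, where XTH2 had -2.50 and -2.44. At 48 h with PpPep1, GATL3 was upregulated (1.002), as were 2.17% of all genes. Peroxidase 44 (-1.51) and CHIT5A (-1.02) were downregulated there, as were 2.35% of all genes. At 48 h with PpPep2, 0 of the 4 were called. With 4 genes, found only because a source names them, the list is a small part of the cell wall genes of peach.

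The study chose its 19 RT-qPCR genes on these samples, so the direction of the other 17 is not independent evidence. They include receptors, kinases and transcription factors of the Pep response. At 1 h 15 of the 17 were upregulated with either Pep, against 5.44% and 6.18% of all genes, with a median log2FC of 3.01 and 3.23 against -0.02 and -0.03. The highest was CDPK11, a calcium-dependent protein kinase, at 6.33 and 6.88, just below basic 7S globulin 2. The lowest was PR4, a pathogenesis-related protein, at -1.68 (adjusted p = 0.0306) and -1.15 (adjusted p = 0.121), not called. XTH2 lay below 14 of the 17 with PpPep1 and below 13 with PpPep2.

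From 1 h to 24 h 16 of the 17 were downregulated with PpPep1 and 15 with PpPep2, against 5.97% and 6.33% of all genes. The lowest was U-box domain-containing protein 21, a ubiquitin ligase, at -5.93 and -6.09, and the highest PR4 at 1.43 (adjusted p = 0.0534) and 2.49 (adjusted p = 0.00139). PR4 was upregulated in the PpPep2 step, in which 1.58% of genes were, against 1.25% with PpPep1. At 24 h against t0 the lowest was basic leucine zipper 34, a transcription factor, downregulated at -2.10 (adjusted p = 0.000518) and -2.16 (adjusted p = 0.000395), near the XTH2 values. The receptor kinase BIR1 was upregulated at 24 h with PpPep2, at 1.36 (adjusted p = 0.000364), while the highest value, that of WRKY33, at 1.65 (adjusted p = 0.0110), was not called.

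From 24 h to 48 h basic leucine zipper 34 was upregulated with both Peps, at 1.42 (adjusted p = 0.00318) and 1.70 (adjusted p = 0.000852), as XTH2 was. The medians of the 17 in this step were -0.11 and -0.15, and XTH2 lay above all of them. Peroxidase 44 was the lowest with PpPep1, and the receptor gene PEPR with PpPep2, at -0.91 (adjusted p = 0.000780), not called because of its size. At 48 h against t0 Peroxidase 44 was the lowest of the 17, at -1.51 (adjusted p = 0.00613, downregulated) and -0.76 (adjusted p = 0.144). In the comparison of all genes at 1 h, 0.463% and 0.479% were downregulated against t0.

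**Figure D4:**
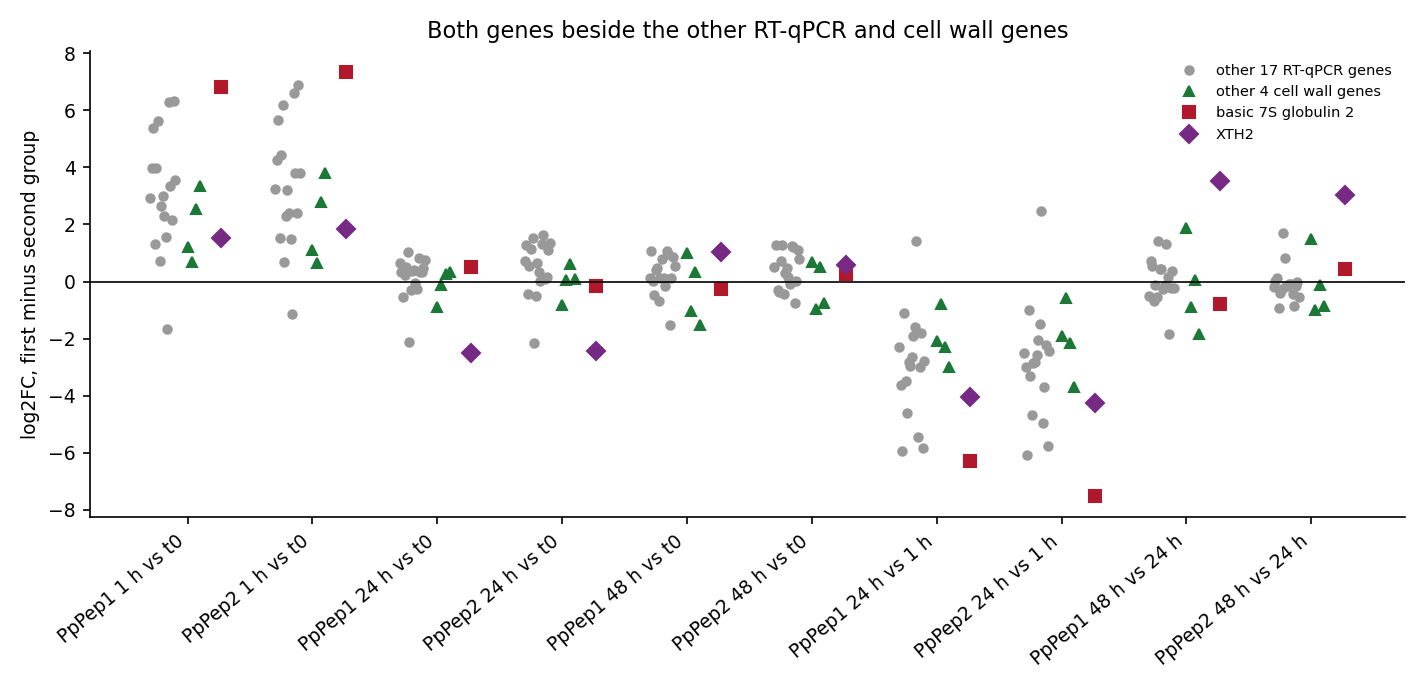
The log2FC of basic 7S globulin 2 (square), XTH2 (diamond), the other 17 genes with RT-qPCR assays (grey points) and the other 4 genes of the cell wall list (triangles) in 10 comparisons, first group minus second. Peroxidase 44 is in both lists. The globulin is at the top at 1 h against t0 (6.83 and 7.35), and XTH2 is at the top from 24 h to 48 h (3.53 and 3.03).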

How the data were processed

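RNA of peach leaf blades was sequenced by the authors as stranded read pairs and aligned with STAR 2.5.3a. Genes were counted with RSEM 1.3.0, and the deposited values are its expected counts as whole numbers, without normalization or filter. How they became whole was not given in the sources used here, nor whether duplicate molecules were removed. Comparisons that the authors made with DESeq2 1.20.0 were not used.

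The counts of 21 libraries were analysed in R 4.3.3 with edgeR 4.0.16 (TMM, filterByExpr, robust quasi-likelihood test, 1 model of 7 groups), with library totals of 33231519 to 59317510. Genes were called DEG where the p, adjusted over 18586 genes by Benjamini-Hochberg, was under 0.01 and log2FC was beyond 1 in either direction. The SE is the log2FC divided by the square root of F. Log2 CPM were taken with a prior count of 2. In all 15 contrasts were tested. Fits were tested on simulated data with the same dispersion for all genes, which does not stand for the wide spread of either gene within groups.

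The 2 genes, the lists and the tests were chosen with earlier results of these data known. Named were both genes, the 5 named genes and 2 of any name with the highest r to each, the highest and lowest of the other RT-qPCR genes (a few others were named after their values were seen), and the cell wall list. Names came from the table and the study's supplementary lists. Alternatives were DESeq2 1.42.0, RLE scaling, no filter or a minimum of 1 CPM in 3 libraries, replicate number as a block, flowcell as a term, only the compared groups, columns as headed, only 12 columns with agreeing headings, no log2FC threshold, each library left out, and other measures of likeness.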

Additional observations from a re-analysis of the deposited data

How the results depend on the processing

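The column headings decided most. Under them the globulin had log2FC -0.17 at PpPep2 1 h and 7.35 at PpPep1 48 h against t0, -0.076 for PpPep2 from 1 h to 24 h, 6.82 for PpPep1 from 24 h to 48 h, and 6.998 and 7.07 for PpPep1 against PpPep2 at 1 and 48 h. XTH2 had -2.44, 1.03 and 1.83 at PpPep2 1 h, PpPep2 24 h and PpPep1 48 h against t0, 3.46 and -0.43 in the PpPep2 steps, and 3.96 and -3.53 between Peps at 1 and 24 h. The interactions became -6.22 and 6.29 for the globulin and -7.49 and 4.76 for XTH2. XTH2 at PpPep2 1 h against t0 was not called with no filter (1.82), with t0, 1 h and 24 h libraries only (1.83), with flowcell as a term (1.74) or in only the compared groups (1.84). DESeq2 called XTH2 at PpPep1 1 h (1.53), PpPep1 24 h (-2.52) and PpPep2 24 h (-2.45) against t0, and the stricter filter called it at PpPep1 24 h (-2.51). The cause of these shifts near the threshold was not tested.

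Leaving out libraries in turn, XTH2 against t0 ranged from 1.09 to 2.25 and from 1.39 to 2.55 at 1 h, from -2.95 to -1.78 and from -2.89 to -1.71 at 24 h, and from 0.57 to 1.75 at PpPep1 48 h. The globulin ranged from -0.041 to 0.96 and from -0.58 to 0.27 at 24 h, and from -0.50 to 0.19 and from -0.15 to 0.72 at 48 h. XTH2 between Peps at 24 h ranged from -0.22 to 0.062, and its interaction from 1 h to 24 h from -0.015 to 0.55.

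Replicate numbers gave little sign of pairing the libraries. The median r of deviations was 0.01 over 63 pairs with the same number, 12 of them over 0.1. Over 126 pairs with different numbers it was -0.002, with 17 over 0.1. With the replicate block XTH2 at 1 h against t0 was 1.69 and 1.87, and neither gene's calls changed. By Spearman's rho 2 of the 5 named genes most like the globulin and 3 of those most like XTH2 remained, and by group means 3 and 3.

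Over all genes, dropping the log2FC threshold raised the genes called against t0 from 1098 to 2651, 1237 to 2773, 172 to 1040, 244 to 507, 841 to 4859 and 482 to 3245 (PpPep1 then PpPep2 at 1, 24 and 48 h), and in the steps from 1341 to 3728, 1471 to 3809, 667 to 3148 and 424 to 2326. At PpPep1 24 h the count was 20 with flowcell as a term and 82 in only the compared groups, against 172, and at PpPep2 24 h it was 161 in only the compared groups, against 244. PpPep1 24 h and t0 shared no first flowcell, so the flowcell term rests on the 1 h libraries alone. Under the headings PpPep2 1 h and 24 h against t0 gave 244 and 841, the steps 685, 1608 and 1, and the comparisons between Peps 1310, 667 and 1959. Between Peps the counts of 3, 7 and 1 were 1 and 0 with flowcell as a term at 1 and 24 h, 0 in only the compared groups at 1 and 48 h, and 62 and 2 by DESeq2 at 24 and 48 h. Without t0 replicate 1 the genes called at 24 h against t0 were 81 and 125, and without PpPep2 24 h replicate 2 they were 137 for PpPep2. Between Peps, leaving out libraries gave 0 to 13, 0 to 6 and 0 to 1 genes.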

Other observations

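The identifiers next to XTH2 were looked at after the likeness of PRUPE_3G171700 had been seen. PRUPE_3G171600 and PRUPE_3G171800, neither named in the sources used here, had r = 0.94 and r = 0.89 with XTH2 over the 21 columns, while PRUPE_3G171400 had r = 0.29. With PpPep1 the mean CPM of PRUPE_3G171600 was 1.36 in t0, 3.75 at 1 h, 0.400 at 24 h and 2.46 at 48 h. That of PRUPE_3G171800 was 1.02, 5.54, 0.348 and 1.41. The fall from 1 h to 24 h was called in both genes with both Peps by edgeR's quasi-likelihood test, with adjusted p between 8.54e-06 and 0.000948. The rise to 48 h was called in PRUPE_3G171600 (adjusted p = 0.00684 and 0.00897) and not in PRUPE_3G171800 (adjusted p = 0.0172 and 0.0439). PRUPE_3G171400 stayed between 34.4 and 44.8 CPM in the group means. Whether RSEM divided reads between these genes was not tested.

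Next to basic 7S globulin 2, PRUPE_1G152200 had 0 counts in the 15 libraries of t0, 24 h and 48 h and 1 to 8 counts in the 6 libraries of 1 h. PRUPE_1G152200 did not pass the filter on low counts, so no change was tested. Whether RSEM divided reads between it and basic 7S globulin 2 was not tested either. PRUPE_1G152000 had a mean of 4.63 CPM in t0, and 5.26 ± 0.634 and 5.02 ± 4.64 at 1 h (SD, n = 3, PpPep1 first). Its means were 2.45 and 0.826 CPM at 24 h and 0.352 and 0.540 at 48 h. At 48 h against t0 it was downregulated with both Peps (log2FC -3.70 and -3.15), as were 2.35% and 1.18% of all genes. There, time and flowcell cannot be told apart.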
